A study of Mus musculus with 12 samples.

Results

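The 10 scavenging enzymes described here are catalase (Cat), the glutathione peroxidases Gpx1 and Gpx4, the peroxiredoxins Prdx1, Prdx2, Prdx3, Prdx4, Prdx5 and Prdx6, and the mitochondrial superoxide dismutase Sod2. They were chosen by name as enzymes that remove superoxide or peroxides, with earlier results of these data known, and each symbol matched 1 of the 48795 genes listed. C2C12 is a single mouse myoblast line whose cells fuse into myotubes in low serum, and the cells had 5 days of differentiation before treatment. Poly(A) RNA was sequenced in 12 libraries, 3 for each of 4 groups. The gRc+H2O2 cells had 18 h of 10 µM ginsenoside Rc (gRc, a saponin of ginseng root) followed by 6 h of 0.25 mM H2O2. The H2O2 cells had 18 h of vehicle followed by 6 h of 0.25 mM H2O2. The gRc cells had 24 h of 10 µM gRc and the vehicle cells 24 h of vehicle. The vehicle was DMSO, listed at 0.02% for all 12 libraries. A tag on the gRc+H2O2 libraries gives the pretreatment as 24 h, and a cell-type tag on all libraries reads myoblasts. Nothing in the labels tells whether replicates came from separate cultures, and the p-values cover only the variation among these samples, part of which may be technical.

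Sod2 turns superoxide made in mitochondria into hydrogen peroxide, and the other members then remove the peroxide. Catalase splits it inside peroxisomes without a reducing partner, whereas the glutathione peroxidases spend glutathione and the peroxiredoxins mostly spend thioredoxin, so that both families depend on NADPH to be recharged. Muscle fibers make peroxide as they contract, and peroxiredoxins and Gpx1 are among its main consumers in the cytosol.

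The catalytic residue divides the family, and the codons are shown to compare the members at that site. Gpx1 and Gpx4 carry a selenocysteine, written in the mRNA as a TGA codon that would elsewhere end the protein, and the peroxiredoxins carry a peroxidatic cysteine. The sequences below are GRCm38 coding sequence with that codon in capitals and 12 bases on either side.
Gpx1: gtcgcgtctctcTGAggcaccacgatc
Gpx4: gtggcctcgcaaTGAggcaaaactgac
Prdx1: tttacttttgtgTGTcccacggagatc
Prdx2: ttcacttttgttTGCcccacggagatc
Prdx3: ttcacatttgtgTGTcctacagaaatt
Prdx4: ttcacctttgtgTGTccaactgaaatc
Prdx5: tttacacctggcTGTtctaagacccac
Prdx6: tttaccccagtgTGCaccacagaactt
The Gpx1 window lies in exon 1 of 2 at chr9:108339439-108339465 on the plus strand, and the Gpx4 window in exon 3 of 7 at chr10:80054725-80054751 on the plus strand. Prdx1 has its codon in exon 3 of 6 at chr4:116691811-116691837 and Prdx2 in exon 3 of 6 at chr8:84970471-84970497, both on the plus strand. Prdx6 has it in exon 2 of 5 at chr1:161247356-161247382 on the minus strand, and the windows of Prdx3, Prdx4 and Prdx5 cross an intron. Prdx1 and Prdx2 differed at 3 of these 27 bases and Prdx3 and Prdx4 at 4, whereas Prdx1 differed from Prdx6, the member with no resolving cysteine, at 10 and from Prdx5 at 13. Estimated counts more than 0.005 from a whole number, as arise where reads are split between genes, occurred only for Prdx2 (in 8 libraries) and Prdx5 (in 11). The copies Prdx6b and Prdx6-ps2 had a count of 0 over all 12 libraries.

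Library totals ran from 19274762 to 31409066 expected counts (fragments assigned to genes by estimation), and all 10 members passed the filter on low counts, with 14838 genes tested. Vehicle replicate 1 stood at −68.6 and gRc and vehicle replicates 3 at 84.2 and 82.3 on the first principal component (43.1% of the variance), with the other 9 libraries between −44.9 and 22.8. The share of mitochondrial transcripts was 0.1% in vehicle replicate 1, 4.53% and 4.52% in gRc and vehicle replicates 3 and 0.538% to 3.15% in the others. The contrast of GC-poor over GC-rich genes was −0.83 on the log2 scale in vehicle replicate 1 and −0.29 to 0.39 in the other libraries. These 3 libraries set the low or high end of many members below, and log2 fold changes without them are given for several members. Summed over 9 myotube genes, TPM ran from 8950 to 9660 in gRc+H2O2, 7520 to 8350 in H2O2, 10100 to 12000 in gRc and 8270 to 11400 in vehicle libraries. The sum over 6 genes of undifferentiated or cycling myoblasts ran from 95.2 to 130.0 in gRc+H2O2, 93.6 to 127 in H2O2, 133 to 181 in gRc and 140.0 to 153 in vehicle libraries, and Pax7 among them fell with H2O2 (log2 fold change −1.27, edgeR adjusted p 0.00352). In gRc+H2O2 against gRc cells Pax7 fell (−1.15, edgeR adjusted p 0.00563), as did the myotube gene Myh8 (−0.62, 0.0347). Markers of blood, endothelial and epithelial cells summed to at most 2.83 TPM over 7 genes, 1 of which was at 0 in all libraries. Fewer cells of a kind and less RNA per cell cannot be told apart in such bulk samples, and the part of these shifts in the results was not tested.

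Levels between genes were compared as TPM (transcript abundance per length, scaled within a library). In gRc+H2O2 cells Gpx4, which reduces lipid hydroperoxides in membranes, was the most abundant at 1104 ± 83.6 TPM (SD, n = 3 for every group), clear of Prdx6 (711 ± 94.8) and Prdx1 (688 ± 83.3), which overlapped. In H2O2 cells the top 3 were not separated from each other: Gpx4 averaged 919 ± 131 TPM, Prdx6 901 ± 150.1 and Prdx1 720 ± 143. In gRc cells Gpx4 (751 ± 93.3) again stood clear, with Prdx1, Prdx2, Prdx6 and Gpx1 following in the same order as in vehicle. In vehicle cells Gpx4 led at 738 ± 89.0 TPM. Prdx1 (466 ± 57.5), Prdx2 (430 ± 207), Prdx6 (408 ± 175) and Gpx1 (263 ± 71.0) followed there, and the libraries of each neighboring pair among these 4 overlapped. Prdx5 stood apart below them at 172 ± 12.2 TPM. Prdx3 (56.8 ± 24.1), Cat (51.7 ± 10.98) and Prdx4 (47.0 ± 10.8) overlapped with each other, and Sod2 was lowest at 23.0 ± 8.57 TPM.

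The members together made up 0.343% to 0.389% of all TPM in gRc+H2O2 libraries, 0.340% to 0.384% in H2O2, 0.252% to 0.319% in gRc and 0.242% to 0.292% in vehicle libraries. Every H2O2-treated library was thus above every library without H2O2 in this sum, which is given as a description. Prdx1 and Prdx6 supplied 37.2% to 40.3% of it in gRc+H2O2 libraries, 41.1% to 50.1% in H2O2, 24.9% to 37.0% in gRc and 25.3% to 41.1% in vehicle libraries. Gpx4 supplied 28.8% to 32.7% in gRc+H2O2 libraries, the most of any single member there. Its share was 23.2% to 31.1% in H2O2, 23.6% to 28.7% in gRc and 26.3% to 29.3% in vehicle libraries. TPM depends on effective length, which for Gpx4 varied by a ratio of 1.89, and the part of length in the sum was not tested.

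**Figure D1:**
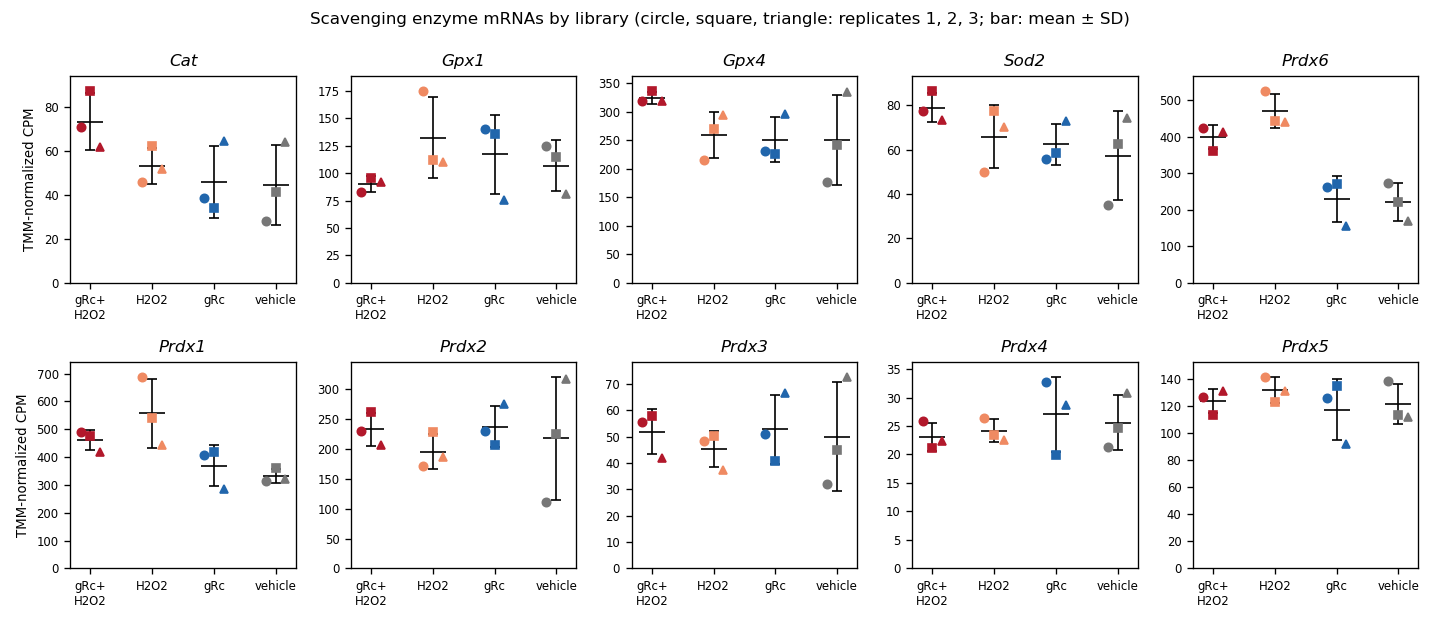
Level of each scavenging enzyme mRNA by group, in TMM-normalized CPM (counts scaled to a common library size, linear axis from 0), with a symbol for each library and a bar for the mean ± SD of 3. The 6 H2O2-treated libraries of Prdx6 sit between 361 and 524 CPM, above the 6 libraries without H2O2 at 157 to 273. Those of Prdx1 are also apart, by a narrow margin, at 420 to 688 CPM against 284 to 417. Most other members overlap between groups.

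To ask which scavengers respond to peroxide itself, H2O2 cells were compared with vehicle cells. Of the 10 members, 2 rose, none fell and 8 did not pass an adjusted p under 0.05, against 7.81% of all tested genes that rose and 7.84% that fell. The same 2 members, Prdx6 and Prdx1, were those with all H2O2 libraries above all vehicle libraries, and no member had them all below, against 15.9% of genes with no overlap upward and 15.2% downward. The median log2 fold change was 0.16 over the members and −0.06 over all genes.

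Prdx6, a peroxiredoxin that also reduces phospholipid peroxides and draws on glutathione, had the largest change among the members. It stood at 524, 444 and 441 CPM in H2O2 libraries, against 273, 221 and 169 CPM in vehicle libraries. All H2O2 values were above all vehicle values, and the lowest was vehicle replicate 3. The log2 fold change was 1.09 (SE 0.23, 2.13-fold, edgeR quasi-likelihood adjusted p 0.00990), and it passed with each of the 12 libraries left out in turn. It did not pass with limma on log2(TPM + 0.5), at 1.23 and an adjusted p of 0.0843, nor with effective-length offsets, at 1.17 and 0.0677. Its effective length, the estimated number of positions a fragment can start from, ran from 654 to 1060 bases over the libraries.

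Prdx1, the cytosolic peroxiredoxin that passes its electrons from thioredoxin, rose less. Its level was 688, 539 and 444 CPM in H2O2 libraries, against 313, 361 and 322 CPM in vehicle libraries. H2O2 replicate 1 was far above the other libraries, and the groups did not overlap. The log2 fold change was 0.75 (SE 0.20, 1.68-fold, edgeR adjusted p 0.0267). This call was near the threshold. It did not pass with no filter (edgeR adjusted p 0.0611), with limma on TPM at either pseudocount or with effective-length offsets. It was lost without H2O2 replicate 1 (0.55, adjusted p 0.122) or 2 (0.0722), without vehicle replicate 2 (0.0524) or 3 (0.0723), and without gRc+H2O2 replicate 1 (0.0506) or 2 (0.0515). With the 3 libraries that stand apart left out together, its value was 0.62 (adjusted p 0.101), but vehicle then has a single library, which is assumed to vary like the other groups.

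Of the 9 members with a promoter entry (all but Prdx6), Prdx1 alone held an antioxidant response element core, the letters TGACNNNGC on either strand, in the RefSeq window of 250 bases before to 50 after the start. The stretch shown carries the match in capitals, read on the opposite strand, and lies at chr4:116685441-116685500 (GRCm38.p6, plus strand), before the annotated start.
Prdx1: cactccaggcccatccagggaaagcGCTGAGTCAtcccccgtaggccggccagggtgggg
Its last letters also spell TGANTCA, the AP-1 motif, and are 1 of 2 matches to that motif in the Prdx1 window. Among all 32851 promoters, 12.4% held TGACNNNGC and 7.8% held TGANTCA. The other 8 members had 11 windows, of which 0 held either motif. A match is a description of letters and not a measured binding site.

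The other cytosolic, secretory and mitochondrial peroxiredoxins did not pass. Prdx2, abundant in the cytosol, had a log2 fold change of −0.16 (SE 0.30) with levels of 171 to 228 CPM in H2O2 libraries, inside the 112 to 317 CPM of vehicle libraries. Prdx3, which works in the mitochondrial matrix, was at −0.14 (SE 0.28), and Prdx4, found in the endoplasmic reticulum, at −0.08 (SE 0.20). Prdx5, present in several compartments, was at 0.12 (SE 0.16). Vehicle replicates 1 and 3 gave the lowest and highest vehicle values for Prdx2, Prdx3 and Prdx4, and differences within that spread were not detectable here.

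Neither glutathione peroxidase passed. Gpx1, the main cytosolic one, stood at 175, 112 and 111 CPM in H2O2 libraries, against 125, 115 and 81.1 CPM in vehicle libraries, with 1 H2O2 library high and the rest overlapping (log2 fold change 0.31, SE 0.26, edgeR adjusted p 0.479). Gpx4 had 215, 270.1 and 294 CPM in H2O2 libraries, against 177, 242 and 334 CPM in vehicle libraries (0.05, SE 0.22). In CPM vehicle alone covered the whole range. By TPM Gpx4 ran from 801 to 1059 in H2O2 libraries and from 637 to 806 in vehicle libraries, which overlap narrowly. Over the alternatives that keep or drop more than single libraries, its log2 fold change ran from −0.0067 to 0.34, and it did not pass in any. Sod2 was at 49.9, 77.4 and 69.9 CPM in H2O2 libraries, against 35.1, 62.5 and 74.2 CPM in vehicle libraries (0.20, SE 0.25, edgeR adjusted p 0.653).

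Catalase depended on the unit. By CPM it stood at 45.9, 62.1 and 51.6 in H2O2 libraries, against 28.2, 41.3 and 64.2 in vehicle libraries, which overlap (log2 fold change 0.26, SE 0.31, edgeR adjusted p 0.628). By TPM it stood at 71.0, 77.9 and 75.4 in H2O2 libraries, against 53.0, 61.9 and 40.1 in vehicle libraries, which do not. The effective length of Cat ran from 730 to 2240 bases over the 12 libraries, a ratio of 3.07, and gRc replicate 3 and vehicle replicate 3 had the longest (2058 and 2240). With effective-length offsets, an alternative chosen after seeing these lengths, Cat was the single member to pass, at 0.56 (edgeR adjusted p 0.0375). The ratio was 1.89 for Gpx4, 1.62 for Prdx6 and at most 1.32 for the other 7 members.

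**Figure D2:**
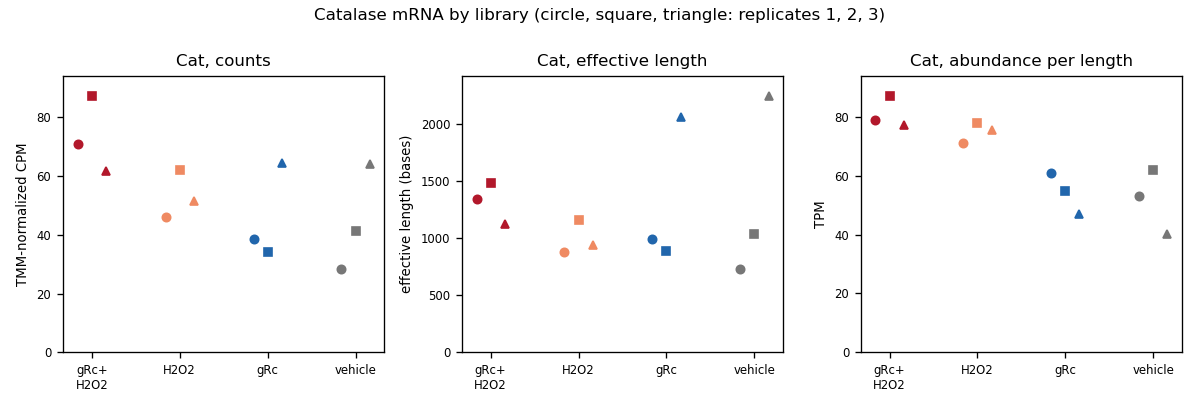
Catalase mRNA by library in CPM, effective length in bases and TPM (linear axes from 0, a symbol for each of 3 replicates per group). The gRc and vehicle replicates 3 are highest of their groups in CPM and length but lowest in TPM, where the H2O2-treated libraries (71.0 to 86.9) lie above those without H2O2 (40.1 to 61.9).

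The second test of peroxide, gRc+H2O2 against gRc cells, uses other libraries than the first. Its baseline is not taken as independent of the first. Deviations from group means in gRc and vehicle libraries correlated by replicate number, although the labels name no pairing. Both tests also come from the fit of all 12 libraries, with 1 estimate of the spread. Here 1 member rose and none fell, against 7.57% of all genes that rose and 8.15% that fell. All gRc+H2O2 libraries were above all gRc libraries for 4 members, Prdx6, Prdx1, Gpx4 and Sod2, and below for none, against 19.2% of genes upward and 19.5% downward. The median log2 fold change was 0.20 over the members and −0.04 over all genes.

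Prdx6 was again the member that rose, at 424, 361 and 412 CPM in gRc+H2O2 libraries, against 263, 270.2 and 157 CPM in gRc libraries. The groups did not overlap, and gRc replicate 3 was the lowest. The log2 fold change was 0.80 (SE 0.23, 1.74-fold, edgeR adjusted p 0.0387). The call was kept without vehicle replicate 1 (0.0224) or 3 (0.0291) and lost without any other single library: gRc replicates 1 to 3 (0.0717, 0.0526 and 0.0923), H2O2 replicates 1 to 3 (0.0614, 0.0657 and 0.0681), gRc+H2O2 replicates 1 to 3 (0.135, 0.0866 and 0.122) and vehicle replicate 2 (0.0617). The log2 fold change in these fits ran from 0.57, without gRc replicate 3, to 0.93, without gRc replicate 2.

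Cat stood at 71.0, 87.1 and 61.6 CPM in gRc+H2O2 libraries, against 38.6, 34.1 and 64.4 CPM in gRc libraries, where gRc replicate 3 alone reached the treated range (0.68, SE 0.31, edgeR adjusted p 0.177). Gpx4 had 318, 336 and 318 CPM in gRc+H2O2 libraries, against 231, 226 and 296 CPM in gRc libraries (0.37, SE 0.22, edgeR adjusted p 0.313). Prdx1 had 489, 476 and 420 CPM in gRc+H2O2 libraries, against 408, 417 and 284 CPM in gRc libraries, apart by a narrow margin (0.32, SE 0.20, edgeR adjusted p 0.322). Sod2 had 77.3, 86.2 and 73.2 CPM in gRc+H2O2 libraries, against 55.8, 58.6 and 73.0 CPM in gRc libraries (0.34, SE 0.25). Gpx1 was at −0.38 (SE 0.26), Prdx4 at −0.23 and Prdx2, Prdx3 and Prdx5 between −0.03 and 0.07. With the 3 libraries that stand apart left out together, the log2 fold change was 1.00 for Cat, 0.49 for Gpx4, 0.58 for Prdx6 and −0.62 for Gpx1. In that fit gRc lacks replicate 3 and vehicle has a single library, which is assumed to vary like the other groups. Calls from that fit are therefore not given, and the shares of all genes above do not apply to it.

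**Figure D3:**
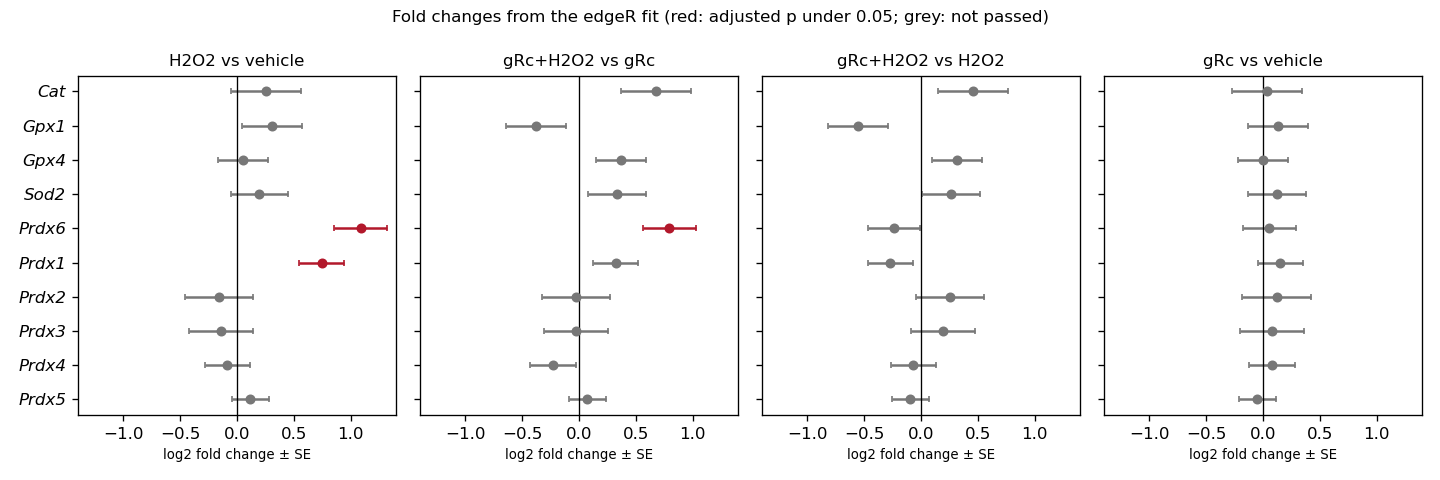
Log2 fold change ± SE of each member from the edgeR fit in 4 comparisons, with 3 libraries a group, in red where the adjusted p is under 0.05. Prdx6 is red in both peroxide comparisons and Prdx1 in H2O2 against vehicle, and no member is red in the comparisons of gRc.

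Whether gRc altered the scavengers under peroxide was asked by comparing gRc+H2O2 with H2O2 cells. None of the 10 members rose or fell, and 0% of all genes passed upward and 0% downward. In the edgeR fit of all 12 libraries no member had an unadjusted p under 0.05, none was called by DESeq2, and 122 of all genes (0.822%) had such an unadjusted p. This share is below that of evenly spread p-values, as it also is in gRc against vehicle and in the interaction. A missing call in these comparisons is therefore not evidence of no effect. The groups did not overlap for 3 members, with Gpx4 higher and Gpx1 and Prdx6 lower, against 7.69% of genes upward and 7.62% downward.

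Gpx1 had the largest difference among the members. It stood at 82.5, 96.0 and 92.0 CPM in gRc+H2O2 libraries, against 175, 112 and 111 CPM in H2O2 libraries. The highest value is again H2O2 replicate 1, and the log2 fold change was −0.56 (SE 0.27, unadjusted p 0.0604 and adjusted p 0.922 in edgeR). Without each library in turn it ran from −0.68 to −0.31. Gpx4 had 318, 336 and 318 CPM in gRc+H2O2 libraries, against 215, 270.1 and 294 CPM in H2O2 libraries (0.32, SE 0.22). Prdx6 had 424, 361 and 412 CPM in gRc+H2O2 libraries, against 524, 444 and 441 CPM in H2O2 libraries (−0.24, SE 0.23). Prdx1 was at −0.27 (SE 0.20) and Cat at 0.46 (SE 0.31), with the other 5 members between −0.09 and 0.26, all at an adjusted p of at least 0.922 in that fit. Cat moved to 0.11 and Prdx1 to −0.0537 with limma on log2(TPM + 0.5), and Cat to 0.0704 with effective-length offsets. In an edgeR fit of just the gRc+H2O2 and H2O2 libraries Gpx1, Cat and Gpx4 had unadjusted p of 0.0139, 0.0174 and 0.0341, each at an adjusted p of 0.338.

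In cells without peroxide, gRc was compared with vehicle. None of the members passed, 0% of all genes passed upward and 0% downward, and 74 genes (0.499%) had an unadjusted p under 0.05, none of them a member in edgeR and none a member called by DESeq2. No member was without overlap, against 0.869% of genes upward and 0.741% downward. The largest of the 10 log2 fold changes was 0.15 (Prdx1, SE 0.20), and the lowest was −0.05 (Prdx5, SE 0.16). The sign of these values carries little, since leaving out single libraries turned it for every member except Prdx1. The interaction, which asks whether the peroxide response differed with gRc, passed for 0 members and 0% of genes in either direction. Its largest values among the members were −0.69 for Gpx1 (SE 0.37, unadjusted p 0.0938 in edgeR), 0.43 for Cat (SE 0.44, but 0.0279 with limma on log2(TPM + 0.5)) and −0.42 for Prdx1 (SE 0.28, but −0.13 with limma), with none called by DESeq2 and 87 of all genes at an unadjusted p under 0.05. The comparisons of gRc+H2O2 with H2O2 and of H2O2 with vehicle share the H2O2 libraries. The estimates of Gpx1, Prdx1, Prdx5 and Prdx6 were above 0 in the second and below 0 in the first, and those of Prdx2 and Prdx3 the reverse. Such opposite signs rest in part on the same values.

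Several genes that recharge the scavengers had larger changes than any scavenger, although the difference between the sets was not tested. In H2O2 against vehicle cells, of 10 genes of the thioredoxin cycle 3 rose and 2 fell, beside 7.81% and 7.84% of all genes. Srxn1, the sulfiredoxin that rescues overoxidized peroxiredoxins, averaged 158 ± 7.17 CPM in H2O2 libraries and 25.7 ± 3.06 CPM in vehicle libraries (log2 fold change 2.62, SE 0.13, edgeR adjusted p 3.06e-06). Txnrd1, the cytosolic thioredoxin reductase, averaged 587 ± 77.9 CPM in H2O2 libraries and 130.0 ± 18.1 CPM in vehicle libraries (2.18, SE 0.17, edgeR adjusted p 5.26e-05). The stress sensor Sesn2 rose (2.59), while its relative Sesn3 (−0.83) and the thioredoxin inhibitor Txnip (−0.75) fell. Thioredoxin itself, Txn1, was at 0.34 (SE 0.23) and did not pass.

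Of 12 genes of the glutathione cycle 4 rose and 1 fell, beside the same shares of all genes. Gclm and Gclc, the subunits of the enzyme that starts glutathione synthesis, averaged 110.0 and 103 CPM in H2O2 libraries and 26.9 and 39.2 CPM in vehicle libraries, and both rose. Gsr, which reduces oxidized glutathione, rose by 0.84 on the log2 scale, and Chac1, which degrades glutathione, by 2.06. Glrx, a glutaredoxin, fell by 0.91. Of 12 genes of NADPH supply 4 rose, with Pgd (1.57) and G6pdx (0.78) of the pentose phosphate pathway, Tkt (0.63) and the mitochondrial folate enzyme Aldh1l2 (1.10), and 2 fell, Idh1 (−1.20) and Nnt (−0.55). The median log2 fold change was 0.37 in the thioredoxin list, 0.35 in the glutathione list and 0.44 in the NADPH list, beside 0.16 for the scavengers and −0.06 for all genes.

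**Figure D4:**
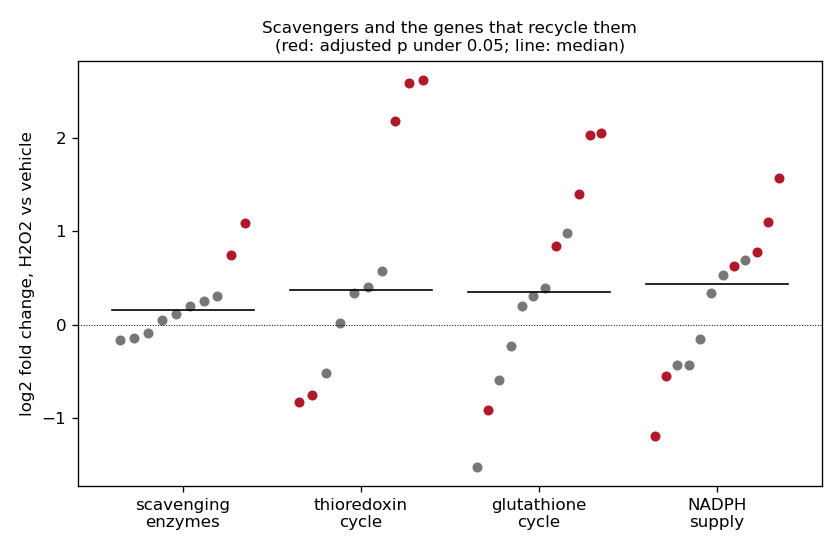
Log2 fold change in H2O2 against vehicle cells (3 libraries each) of the 10 scavenging enzymes and of the genes of 3 recycling lists, a point for each gene, red where the edgeR adjusted p is under 0.05, with a line at the median. The highest scavenger, Prdx6, is at 1.09, while Srxn1 and Sesn2 in the thioredoxin list are at 2.62 and 2.59.

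In gRc+H2O2 against gRc cells, 3 thioredoxin genes rose and 2 fell, 5 glutathione genes rose and 1 fell, and 3 NADPH genes rose and 2 fell, beside 7.57% of all genes that rose and 8.15% that fell. The cystine importer Slc7a11 rose there (1.43, edgeR adjusted p 0.0228), and in H2O2 against vehicle cells it was at 0.98 (0.0949). No gene of any of these lists passed in gRc+H2O2 against H2O2, in gRc against vehicle or in the interaction. Srxn1 averaged 155 ± 9.97 CPM in gRc+H2O2 libraries and 158 ± 7.17 CPM in H2O2 libraries, and Txnrd1 587 ± 54.8 CPM in gRc+H2O2 libraries and 587 ± 77.9 CPM in H2O2 libraries.

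The other lists are given beside the same share of all genes, 7.81% higher and 7.84% lower, from which their counts are not set apart. Of 9 further genes (superoxide dismutases, glutathione peroxidases and Ccs, the copper chaperone of Sod1) 5 were tested and 0 passed in H2O2 against vehicle cells. Cytosolic Sod1 was at 0.74 (edgeR adjusted p 0.127), secreted Gpx3 at −0.75 (0.0680), and Gpx2, Gpx5, Gpx6 and Gpx7 were filtered out. Of 10 tested sources of superoxide or peroxide, Ero1l, an endoplasmic reticulum oxidase, rose by 2.39 and the mitochondrial monoamine oxidase Maoa by 0.73, and peroxisomal Acox3 fell by 0.61. None of 8 genes listed for selenoprotein synthesis (Gpx1 and Gpx4 are selenoproteins) and none of 10 listed for peroxisome import (Cat is peroxisomal) passed.

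The genes closest in pattern to Prdx6 and Prdx1 were sought among 10841 genes by the root-mean-square difference of centered log2 CPM over the 12 libraries. For Prdx6, whose own SD was 0.57, they were Wdr74 (0.10), Gars (0.10) and Tsr1 (0.11). Being chosen on the same libraries, these genes have changes fixed by the choice, and their values are a description: in H2O2 against vehicle cells they had log2 fold changes of 1.00, 1.20 and 0.99. For Prdx1, with an SD of 0.36, they were Eif4e (0.11), Pycr1 (0.14) and Ssb (0.14), with log2 fold changes of 0.63, 0.65 and 0.57.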

How the data were processed

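According to the deposited records, reads were checked with FastQC, trimmed with TrimGalore, aligned with STAR (2.7.3a) to GRCm38 (mm10) and quantified with RSEM (1.3.3). The authors deposited expected counts per gene (fragments assigned by RSEM, not normalized), TPM (abundance per length, scaled within a library) and an effective length in bases. Library preparation was strand-specific, but whether counting used strand is not given in the sources used here, so overlapping and antisense genes are uncertain.

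Expected counts were rounded and fitted in R 4.3.3 with edgeR 4.0.16 (filterByExpr, TMM, quasi-likelihood F test, all 12 libraries, Benjamini-Hochberg adjustment over 14838 genes, biological coefficient of variation 0.295). SE was derived by dividing the absolute log2 fold change by √F. An adjusted p under 0.05 passed. All 10 members were named in every comparison, of each list the genes that passed (at most the 6 of smallest p) and some further members by role, and the 3 genes nearest in pattern to each member that passed in H2O2 against vehicle, among genes whose mean log2 CPM reached 2. The members and lists were chosen with earlier results of these data known. The edgeR fit was also run on counts simulated with independent libraries and no outlying ones. That run does not test how outlying libraries affect calls. Alternatives were DESeq2 1.42.0, its size factors, other filters, a fit of just the compared groups, replicate number as a block, limma 3.58.1 on log2(TPM + 0.5) and log2(TPM + 0.1), GC offsets, no mitochondrial genes, libraries left out and, added after seeing the data, effective-length offsets. The labels name no pairing of libraries. Deviations from group means in gRc and vehicle libraries correlated at 0.46, 0.27 and 0.86 for replicates 1, 2 and 3. No other comparison had all 3 over the threshold of 0.1. In gRc+H2O2 against H2O2 the values were 0.08, 0.402 and 0.309, so that replicate 1 fell just short. In H2O2 against vehicle they were 0.44, 0.294 and −0.283. With replicate number as a block, Gpx1 in gRc+H2O2 against H2O2 had an unadjusted p of 0.0415 and an adjusted p of 0.891 in edgeR. FPKM were not used.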

Additional observations from a re-analysis of the deposited data

How the results depend on the processing

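In H2O2 against vehicle the number of members passing moved to 1 with no filter, with only the groups compared, with GC offsets, with effective-length offsets (Cat) and with vehicle 1 and 3 and gRc 3 left out, and to 0 with limma on TPM at both pseudocounts, and was 1 to 2 with each library left out. In gRc+H2O2 against gRc it moved to 0 with no filter, only the groups compared and limma on TPM at both pseudocounts, to 2 with effective-length offsets (Cat, 0.61, and Gpx4, 0.59) and to 4 with the 3 libraries out, and was 0 to 1 with each library left out. It stayed 0 elsewhere. The replicate block gave 2, 0, 0, 1 and 0 members in H2O2 against vehicle, gRc+H2O2 against H2O2, gRc against vehicle, gRc+H2O2 against gRc and the interaction, and so changed no call (Prdx6 1.11, adjusted p 0.00710, in edgeR). The causes were not tested.

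With vehicle 1 and 3 and gRc 3 out, vehicle has a single library and gRc 2, and the lone library is assumed to vary like the other groups. The values that changed sign follow. In H2O2 against vehicle Gpx4 went to −0.0067 with GC offsets, and Prdx3 to 0.0035 with the 3 libraries out. In gRc+H2O2 against H2O2 limma gave Prdx4 0.021 at both pseudocounts and Prdx5 0.115 at both, and effective-length offsets gave Prdx5 0.0705. In gRc against vehicle Gpx4 went to −0.015 with DESeq2, −0.014 with its size factors, −0.0403 with effective-length offsets, −0.0082 without mitochondrial genes and −0.0873 with the 3 libraries out, which also gave Cat −0.19, Prdx2 −0.0540, Sod2 −0.14 and Prdx5 0.19. Prdx5 was 0.0543 and 0.0544 with limma (0.5 and 0.1), 0.0030 with GC offsets and 0.0016 with effective-length offsets. In gRc+H2O2 against gRc the 3 libraries out gave Prdx2 0.0875, Prdx3 0.17 and Prdx5 −0.0844. In the interaction Prdx5 was 0.0604 and 0.0606 with limma (0.5 and 0.1) and 0.0688 with effective-length offsets. With single libraries left out, the ranges below crossed 0. In H2O2 against vehicle they were −0.14 to 0.30 (Gpx4), −0.47 to 0.20 (Prdx2), −0.37 to 0.22 (Prdx3), −0.19 to 0.0588 (Prdx4) and −0.0520 to 0.41 (Sod2). In gRc against vehicle they were −0.30 to 0.38 (Cat), −0.0446 to 0.36 (Gpx1), −0.20 to 0.25 (Gpx4), −0.19 to 0.48 (Prdx2), −0.15 to 0.44 (Prdx3), −0.10 to 0.25 (Prdx4), −0.17 to 0.10 (Prdx5), −0.11 to 0.27 (Prdx6) and −0.13 to 0.34 (Sod2). In gRc+H2O2 against gRc they were −0.12 to 0.0779 (Prdx2), −0.17 to 0.16 (Prdx3) and −0.0937 to 0.19 (Prdx5). In the interaction they were −0.23 to 0.44 (Prdx2), −0.25 to 0.34 (Prdx3), −0.31 to 0.0265 (Prdx4), −0.20 to 0.0786 (Prdx5) and −0.0829 to 0.39 (Sod2).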
